A study of Mus musculus with 2 samples.

Results

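The genes of sarcoplasmic reticulum calcium uptake and calcium buffering were compared between 2 hindlimb muscle RNA-seq libraries of mice. They are the 3 SERCA pump genes Atp2a1, Atp2a2 and Atp2a3, the pump inhibitors Sln and Pln, the luminal calcium-binding proteins Casq1, Casq2 and Hrc, and the cytosolic buffer Pvalb. All 9 genes were taken by exact symbol from the 44787 genes of the deposited table. The first library came from mice with floxed Srsf2 alleles (flox/flox) that also carried MyoD-Cre (the MyoD-Cre library), and the second from flox/flox mice without Cre (the flox/flox library). Srsf2 encodes a splicing factor rich in serine and arginine, and MyoD-Cre directs the Cre recombinase to cells of the myogenic lineage. The floxed alleles are shared by both groups and Cre is in 1 of them, so loss of Srsf2 and the presence of the Cre allele cannot be told apart. Each genotype had 1 library. The labels used here give no age, no sex and no number of animals per library. They name hindlimb muscle as the tissue and whole hindlimbs as what was collected. No difference below has a replicate check and no p-value is given, so "lower" and "higher" describe these 2 libraries.

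In muscle, calcium released from the sarcoplasmic reticulum starts contraction, and SERCA pumps return it to the lumen at the cost of ATP, which lets the fibre relax. Small membrane peptides such as sarcolipin and phospholamban bind the pump and reduce its activity or its efficiency. Calsequestrins hold calcium inside the lumen, and parvalbumin binds it in the cytosol of fast fibres and speeds relaxation. SERCA1 is the pump of fast skeletal fibres, SERCA2 is that of slow fibres and the heart and, as a second isoform, of most other cells, and SERCA3 is found mainly in non-muscle cells.

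Of the 9 genes 8 were measured, and all 8 had lower values in the MyoD-Cre library, by very different amounts. Parvalbumin lay lowest at 0.141 times its flox/flox level, SERCA1 and calsequestrin-1 were close to 0.5 times, sarcolipin, calsequestrin-2 and Hrc were between 0.658 and 0.753 times, and SERCA2 and SERCA3 had, with the values as deposited, counting intervals that hold a ratio of 1. A gene was taken as measured at 1 FPKM or more (fragments per kilobase of gene and library size) in at least 1 library, which 13175 genes reached, and Pln did not. The difference of a gene was log2((MyoD-Cre FPKM + 1)/(flox/flox FPKM + 1)), and a size of 1 or more, a 2-fold rule, was needed to call a gene higher or lower. By that rule 1 of 8 measured genes, Pvalb, was lower and 0 were higher, where 0.744% of all measured genes were lower and 2.68% were higher. At a 1.5-fold rule 4 of 8 were lower (Pvalb, Casq1, Atp2a1 and Casq2) and 0 were higher, where 2.91% of all measured genes were lower and 9.15% were higher. The median difference of the 8 genes was -0.53 and that of all measured genes was 0.18. A difference below 0 was found for 8 of 8, and for 27% of all measured genes. The values as deposited put Atp2a1 and Casq1 short of the rule; scaling the libraries by the median of ratios, by TMM or without the 50 most abundant genes brought both past it, so that 3 of 8 were lower, where 1.31%, 1.31% and 1.34% of all measured genes were lower. These scalings moved the median gene to 0.0078, 0.0095 and -0.0023. TMM stands here for a trimmed mean of log2 FPKM ratios over genes at 1 FPKM or more in both libraries. It was taken without the weights from read counts of the usual method. Of all genes past the rule, 78.3% were higher with the values as deposited and 60.2%, 60.2% and 59.4% under those scalings.

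The MyoD-Cre library held 76702198 reads and the flox/flox library 69422626, of which 80.0% and 81.4% were mapped. The FPKM values themselves are relative to 28060573 and 26659452 reads. Srsf2 was at 19.4 FPKM in the MyoD-Cre library against 31.1 FPKM in the flox/flox library, 0.624 times as much (95% counting interval 0.583 to 0.666). All 15 genes of a list common to skeletal muscle fibres were measured in both libraries, among them Acta1 (skeletal actin) and Ckm (muscle creatine kinase), and their summed level was 8316 FPKM against 12684 FPKM. Several lists of markers of other tissues had higher sums in the MyoD-Cre library. The 12 keratinocyte markers summed to 1976 FPKM in the MyoD-Cre library against 12.5 FPKM in the flox/flox library, with 12 against 4 of them at 1 FPKM or more and none at 0 in either. The 10 adipocyte markers summed to 719 against 306 FPKM, the 12 bone and cartilage markers to 2014 against 1122 FPKM and the 8 fibroblast markers to 4767 against 2917 FPKM, none of them at 0. The 8 erythroid markers summed to 2770 against 1272 FPKM, also with none at 0. The 7 smooth muscle markers summed to 1835 against 2000 FPKM, with none at 0. Most of that sum was Des, at 1661 against 1837 FPKM, which is also in the list common to muscle fibres. The smooth muscle list had a median difference of 0.27, with 2 of 7 genes below 0. The part of these markers in the lower values below was not tested, and in whole tissue RNA, fewer fibres and less RNA per fibre cannot be told apart.

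The upstream sequences of Atp2a1 and Casq1, which had nearly equal ratios, and of Pvalb, which lay lowest, are shown for the 250 bases before the RefSeq start site on GRCm38.p6, 5′ to 3′ on the gene's strand. Of the 9 genes, 7 had a promoter entry. Capitals mark E-boxes, the letters CANNTG that bHLH factors such as MyoD bind, which read the same pattern on both strands. For Pvalb, which has 2 listed start sites, the one 49 bases from the deposited 5′ end of the gene was used.
Atp2a1, chr7:126463074-126463323, minus strand: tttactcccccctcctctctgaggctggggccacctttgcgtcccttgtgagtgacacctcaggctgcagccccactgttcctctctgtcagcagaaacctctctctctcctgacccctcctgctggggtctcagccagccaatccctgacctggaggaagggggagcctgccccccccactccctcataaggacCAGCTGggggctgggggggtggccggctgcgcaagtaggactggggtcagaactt
Casq1, chr1:172219896-172220145, minus strand: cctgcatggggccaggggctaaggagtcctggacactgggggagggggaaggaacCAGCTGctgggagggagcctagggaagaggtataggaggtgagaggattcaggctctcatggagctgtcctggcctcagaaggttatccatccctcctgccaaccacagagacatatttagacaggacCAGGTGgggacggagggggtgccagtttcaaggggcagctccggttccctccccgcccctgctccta
Pvalb, chr15:78206401-78206650, minus strand: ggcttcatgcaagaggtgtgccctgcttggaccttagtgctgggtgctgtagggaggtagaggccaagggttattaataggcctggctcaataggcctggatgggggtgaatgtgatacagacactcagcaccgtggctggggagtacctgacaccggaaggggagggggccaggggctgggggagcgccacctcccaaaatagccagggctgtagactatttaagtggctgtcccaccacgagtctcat
The Atp2a1 window held 1 E-box and the Casq1 window 2, while the Pvalb window shown held 0 and the window of its other start site 1. These letters are common, being found in 66.2% of all 32851 promoter windows of the same length. The MEF2 core was searched in 1 form only, CTA, any 4 bases and TAG, which is also the same pattern on both strands. This form was in 0 of the 8 windows of the 7 genes and in 3.2% of all windows. Forms that begin with TTA or end in TAA were not searched, and the Pvalb window shown holds the letters ttattaatag. The 0 therefore does not mean that the windows lack a MEF2 site. A match or its absence is a description of these letters and says nothing about binding.

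SERCA1 had the lowest ratio of the pumps. Atp2a1 (chromosome 7, 126445860 to 126463103, minus strand, on GRCm38), the SERCA1 gene, was at 297 FPKM in the MyoD-Cre library against 544 FPKM in the flox/flox library. About 28953 and 50467 reads gave a ratio of MyoD-Cre to flox/flox of 0.545 (95% counting interval 0.537 to 0.553). Its difference of -0.87 was lower than that of all but 157 of the 13175 measured genes. The deposited value covers the gene as a whole and does not separate its adult and neonatal splice forms.

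Atp2a2 (chromosome 5, 122453513 to 122502225, minus strand), the SERCA2 gene, was at 46.1 FPKM in the MyoD-Cre library against 46.2 FPKM in the flox/flox library. Its ratio was 0.998 (0.966 to 1.03), an interval that holds 1. The flat value depends on the scaling, since the ratio was 0.864 (0.836 to 0.893) under the median of ratios, 0.866 (0.838 to 0.895) with TMM and 0.857 (0.829 to 0.886) without the 50 most abundant genes. The muscle isoform SERCA2a and the widespread isoform SERCA2b come from this gene and were not separated. Keratinocytes depend on SERCA2b as their main pump, and the part of the keratinocyte markers above in its value was not tested.

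Atp2a3, the SERCA3 gene, was low in both libraries, at 2.04 FPKM in the MyoD-Cre library against 2.30 FPKM in the flox/flox library. The ratio was 0.886 (0.747 to 1.05) from 264 and 283 reads, so a difference was not detectable at this depth with the values as deposited. Under the median of ratios it was 0.768 (0.647 to 0.911), under TMM 0.769 (0.648 to 0.912) and without the 50 most abundant genes 0.761 (0.641 to 0.903). The deposited table places Atp2a3 on the scaffold nt_166317, whereas GENCODE M21 has it on chromosome 11 (72961169 to 72993044), and the length implied by its values, 4606 bases, is that of its longest annotated transcript. SERCA3 is known from platelets, lymphocytes and endothelium. The 5 platelet markers summed to 22.9 FPKM against 20.3 FPKM, the 8 lymphocyte markers to 3.22 against 2.50 FPKM and the 8 endothelial markers to 143 against 156 FPKM. Gp9 was at 0 in the flox/flox library, Cd3e at 0 in the MyoD-Cre library and Cd3d at 0 in the flox/flox library, while no endothelial marker was at 0.

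**Figure D1:**
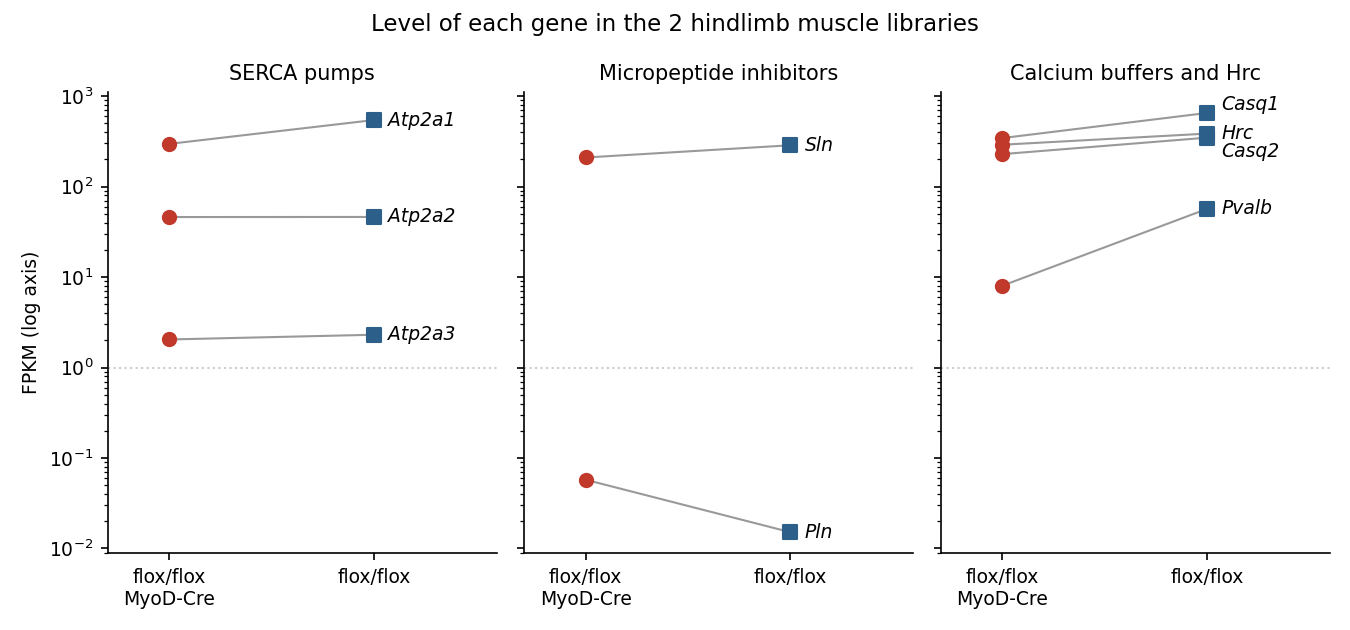
FPKM on a log axis in the MyoD-Cre library (red circles, left) and the flox/flox library (blue squares, right) for the pumps, the micropeptide inhibitors and the calcium-binding genes, with 1 library per genotype; the dotted line marks 1 FPKM. Pvalb has the steepest line, with 8.02 FPKM in the MyoD-Cre library and 56.7 FPKM in the flox/flox library, the line of Atp2a2 is flat at 46.1 and 46.2 FPKM, and Pln lies under 1 FPKM in both.

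Because the pumps moved unequally, the make-up of the SERCA genes differed between the libraries. Summed over the 3 genes, SERCA was at 345 FPKM in the MyoD-Cre library against 593 FPKM in the flox/flox library, 0.582 times. Atp2a1 made up 86.0% of this sum (95% counting interval 85.7 to 86.3) in the MyoD-Cre library and 91.8% (91.6 to 92.0) in the flox/flox library. Atp2a2 made up 13.4% (13.1 to 13.7) against 7.79% (7.61 to 7.97), and Atp2a3 0.592% against 0.389%. The level of Atp2a1 was 6.44 times that of Atp2a2 in the MyoD-Cre library against 11.8 times in the flox/flox library. These are shares of FPKM, a level per length, and a scaling of whole libraries leaves them as they are.

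Sarcolipin was the most abundant of the inhibitor genes in both libraries. Sln (chromosome 9, 53850251 to 53853849, plus strand) encodes sarcolipin, a short membrane peptide that uncouples ATP use by SERCA from calcium transport. It was at 209.8 FPKM in the MyoD-Cre library against 287 FPKM in the flox/flox library, 0.732 times as much (0.711 to 0.755) from about 7761 and 10067 reads. It was lower by less than Atp2a1, so that Sln stood at 0.707 times the level of Atp2a1 (0.690 to 0.725) in the MyoD-Cre library and at 0.526 times (0.515 to 0.538) in the flox/flox library.

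Pln (chromosome 10, 53337686 to 53345999, plus strand) encodes phospholamban, the inhibitor of SERCA2 in heart and slow muscle. It was at 0.0575 FPKM in the MyoD-Cre library and 0.0151 FPKM in the flox/flox library, from 4 reads and 1 read, a ratio of 3.80 whose counting interval of 0.376 to 187 holds 1. No direction can be read at this depth. Sln and Pln together stood at 0.609 times the summed SERCA level (0.594 to 0.624) in the MyoD-Cre library against 0.483 times (0.473 to 0.494) in the flox/flox library, a figure that Sln alone sets. Of 8 cardiac muscle markers, 1 in the MyoD-Cre library and 2 in the flox/flox library reached 1 FPKM. The 8 summed to 7.10 against 12.8 FPKM, of which Myh6 was the largest part at 3.75 against 9.93 FPKM. The 2 measured genes of this list had differences below 0. Nppa (0.472 against 0.0452 FPKM) and Nppb (0.503 against 0.0481 FPKM) were under 1 FPKM in both libraries and higher in the MyoD-Cre library. Myl7 was at 0 in the flox/flox library.

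Other micropeptides of the same family had nearly equal deposited values in both libraries. The table holds 2310015B20Rik, the older symbol of Mrln (myoregulin), at 16.1 FPKM in the MyoD-Cre library against 16.3 FPKM in the flox/flox library. It holds 1810037I17Rik (another-regulin) at 3.05 against 3.04 FPKM, with an interval of the ratio of 0.803 to 1.26. The 3 scalings put the first at 0.846 to 0.854 times and the second at 0.862 to 0.871 times. Smim6 (endoregulin) was under 1 FPKM in both libraries, at 0.329 against 0.192 FPKM. Strit1, the gene of the activating micropeptide DWORF, was listed but not found among the deposited genes under that symbol, so it has no value here.

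Both calsequestrins were lower in the MyoD-Cre library, calsequestrin-1 by more. Casq1 (chromosome 1, 172209894 to 172219895, minus strand), the main luminal calcium store protein of skeletal muscle, was at 344 FPKM in the MyoD-Cre library against 652 FPKM in the flox/flox library, the highest level of the 9 genes in each. The ratio was 0.528 (0.518 to 0.537). Casq2 (chromosome 3, 102086455 to 102146514, plus strand), the isoform of heart, slow fibres and developing muscle, had 229 FPKM against 348 FPKM, or 0.658 times as much (0.645 to 0.671). Casq1 made up 60.1% of the calsequestrin level (59.6 to 60.6) in the MyoD-Cre library and 65.2% (64.8 to 65.6) in the flox/flox library.

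Calsequestrin stood in nearly the same proportion to the pumps in both libraries, with intervals that touch or overlap. Casq1 and Casq2 together stood at 1.66 times the summed SERCA level (1.64 to 1.69) in the MyoD-Cre library and at 1.69 times (1.67 to 1.71) in the flox/flox library. Casq1 stood at 1.16 times Atp2a1 (1.14 to 1.18) in the MyoD-Cre library and at 1.20 times (1.18 to 1.21) in the flox/flox library.

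Hrc (chromosome 7, 45335269 to 45338973, plus strand) encodes the histidine-rich calcium-binding protein of the lumen, which binds triadin and SERCA. It was at 290.4 FPKM in the MyoD-Cre library against 386 FPKM in the flox/flox library, a ratio of 0.753 (0.739 to 0.768). Hrc was therefore close to Atp2a1 in level in the MyoD-Cre library, at 0.979 times (0.961 to 0.997), and below it in the flox/flox library, at 0.708 times (0.697 to 0.719).

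**Figure D2:**
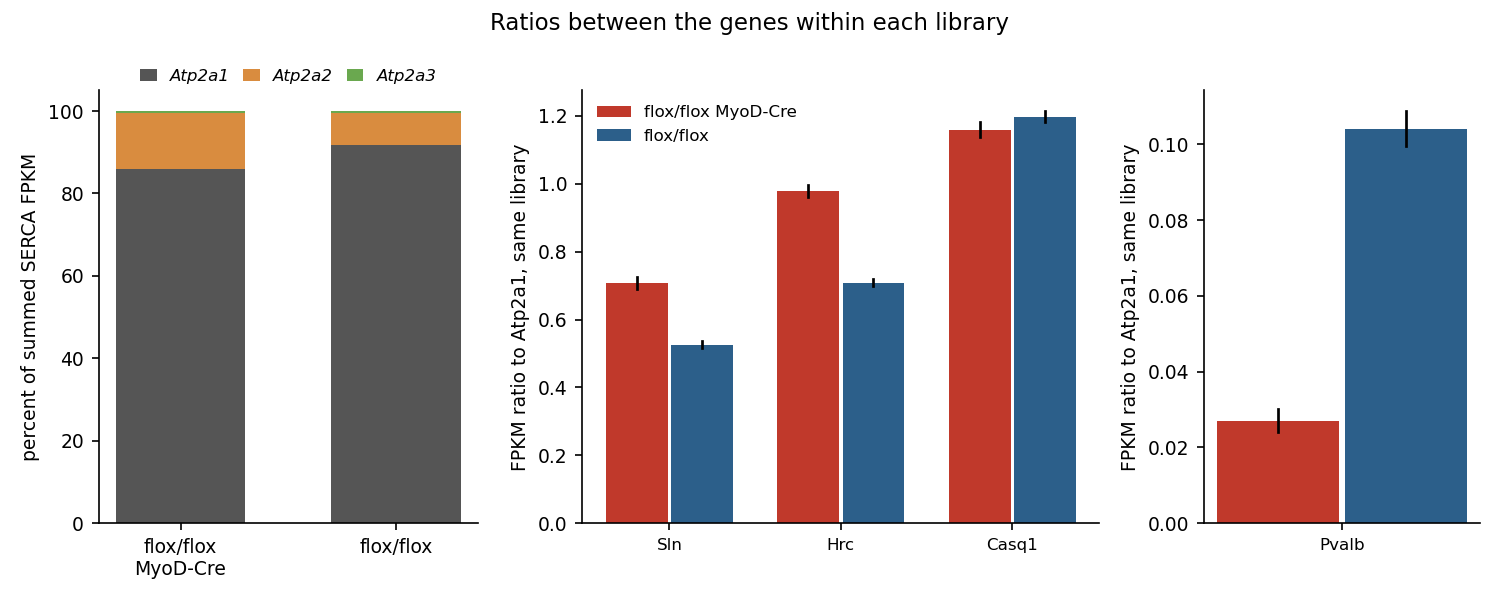
Left, the share of each pump gene in the summed SERCA FPKM (percent), and centre and right, the level of Sln, Hrc, Casq1 and Pvalb as a ratio to Atp2a1 in the same library, for the MyoD-Cre library (red) and the flox/flox library (blue); black lines are 95% counting intervals. The Atp2a2 share is 13.4% against 7.79%, the bars of Sln and Hrc are higher in the MyoD-Cre library, those of Casq1 are close at 1.16 and 1.20, and Pvalb is at 0.0270 against 0.104.

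Parvalbumin showed the largest difference of the 9 genes, and none of the other measured genes in the table had a lower difference. Pvalb (chromosome 15, 78191117 to 78206351, minus strand), the soluble calcium buffer of the fastest fibres, was at 8.02 FPKM in the MyoD-Cre library against 56.7 FPKM in the flox/flox library. The ratio was 0.141 (0.125 to 0.160) from 305 and 2049 reads. Per 100 FPKM of Atp2a1 there were 2.70 FPKM of Pvalb (2.41 to 3.02) in the MyoD-Cre library and 10.4 FPKM (9.96 to 10.9) in the flox/flox library. Pvalb ranked 5341st by level among all genes in the MyoD-Cre library and 744th in the flox/flox library. Its difference stayed past the 2-fold rule under each of the pseudocounts, scalings, filters and folds tried, and lay between -2.87 and -2.24 over the pseudocounts and scalings. Its level was below that of Atp2a2 (46.1 FPKM) in the MyoD-Cre library and above it (46.2 FPKM) in the flox/flox library. In the flox/flox library the order of levels was Casq1, Atp2a1, Hrc, Casq2, Sln, Pvalb, Atp2a2, Atp2a3 and Pln, and the exchange of Pvalb and Atp2a2 was the 1 change of order in the MyoD-Cre library.

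The other cytosolic calcium-binding genes were also listed. Of 13 listed genes 10 were measured, 0 were past the rule in either direction, and their median difference was 0.31 against 0.18 over all measured genes. Calm2, a calmodulin gene, was at 273 FPKM in the MyoD-Cre library against 231 FPKM in the flox/flox library. S100a10 had the highest difference of that list, at 166 FPKM against 115 FPKM, and S100b the lowest, at 1.37 FPKM against 1.49 FPKM, where the interval of 0.626 to 1.34 holds 1. Ocm, the parvalbumin relative oncomodulin, and the buffers Calb1 and Calb2 were under 1 FPKM in both libraries.

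**Figure D3:**
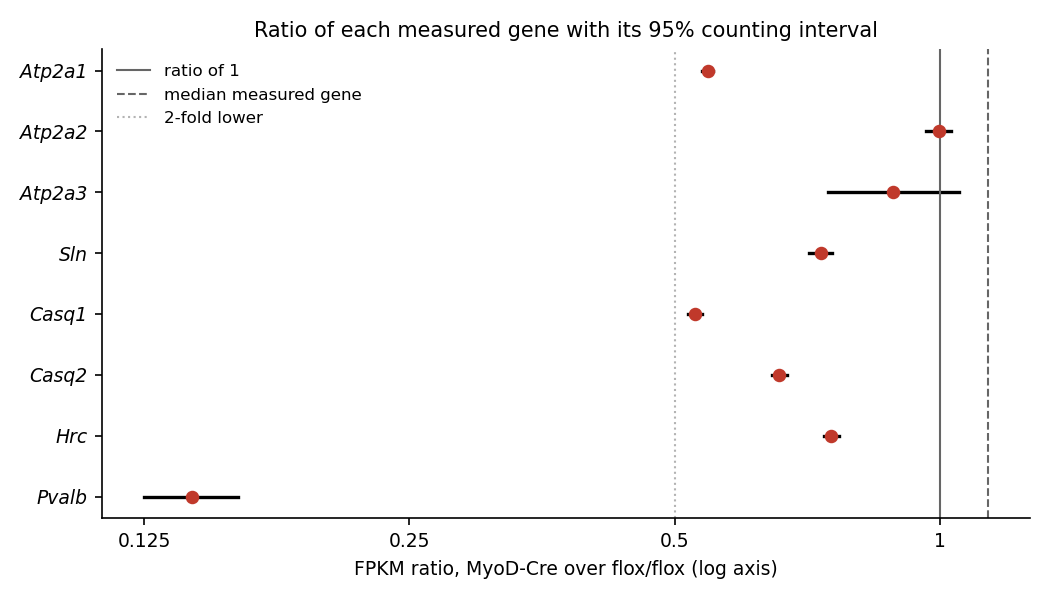
FPKM ratio of the MyoD-Cre library to the flox/flox library for the 8 measured genes on a log axis, with 95% counting intervals as black lines; the solid line marks a ratio of 1, the dashed line the median measured gene and the dotted line a 2-fold lower value. With the values as deposited, the intervals of Atp2a2 and Atp2a3 alone reach 1, Atp2a1 and Casq1 sit near 0.5 at 0.545 and 0.528, and Pvalb is at 0.141.

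**Figure D4:**
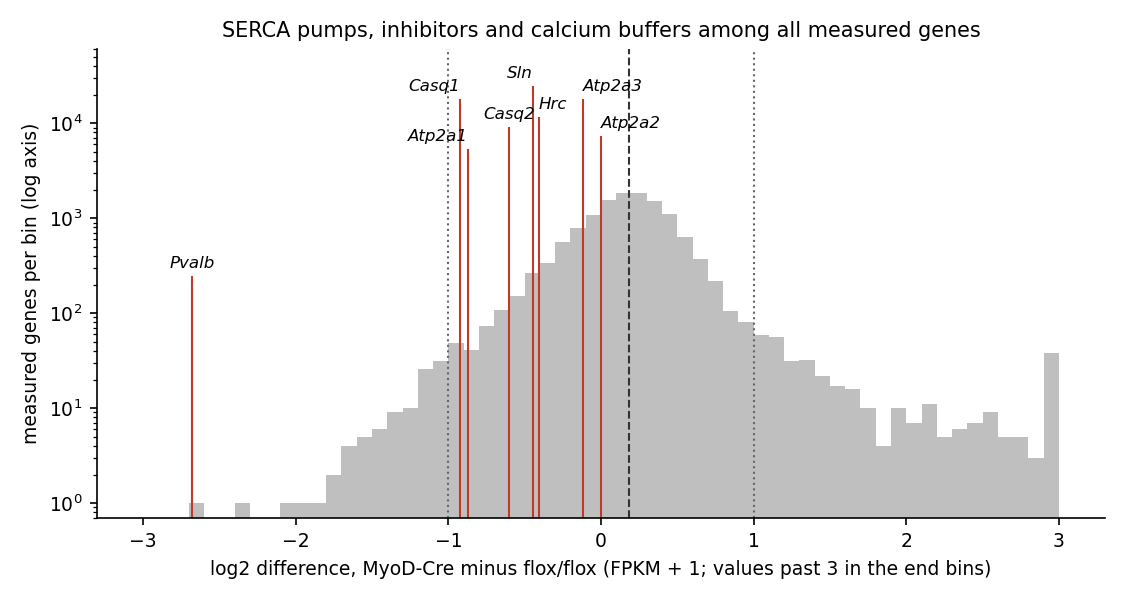
Number of the 13175 measured genes (grey, log axis) by their log2 difference, MyoD-Cre minus flox/flox, with the 8 measured members as red lines; dotted lines mark the 2-fold rule and the dashed line the median gene at 0.18. All 8 lie left of the median gene, and Pvalb at -2.68 lies left of the rule.

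Set against other genes of muscle fibres, the 8 measured genes lay on both sides. The list common to muscle fibres had a median difference of -0.44, with 13 of 15 genes below 0 and 0 past the rule, from Acta1 at 4139 FPKM against 7239 FPKM to Tcap, a titin cap protein, at 178 FPKM against 155 FPKM. Relative to that median, Sln (-0.01) and Hrc (0.03) were close to it, Casq2 lay at -0.16, Atp2a1 (-0.43) and Casq1 (-0.48) lay below, and Pvalb (-2.24) far below. Atp2a2 (0.44) and Atp2a3 (0.32) lay above it. With the 25 fast and slow fibre genes as the base, Sln (0.20), Hrc (0.24) and Casq2 (0.05) lay above it, so that the signs of Sln and Casq2 turn with the base, while Atp2a1 (-0.22), Casq1 (-0.27) and Pvalb (-2.03) stayed below. All 14 fast fibre genes had differences below 0, with a median of -0.90 and 4 lower by the rule, from Myh4, the IIb myosin heavy chain, at 16.9 FPKM against 69.3 FPKM to Myh2, the IIa chain, at 30.4 FPKM against 41.6 FPKM. The 11 slow fibre genes had a median of -0.12, 1 of them lower by the rule, from Myl3, a slow myosin light chain, at 30.4 FPKM against 63.1 FPKM to Myl6b, at 58.6 FPKM against 43.7 FPKM. The differences of the fast type genes Atp2a1 (-0.87) and Casq1 (-0.92) thus lay beside the fast list median, and that of Atp2a2 (-0.003) above the slow list median.

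On the release side of the calcium cycle, 1 gene passed the rule with the values as deposited. Of 17 listed genes of calcium release and the triad, all measured, 15 had differences below 0, 1 was lower and 0 were higher by the rule, and the median was -0.50. Jph1, a junctophilin that ties the reticulum to the tubule membrane, was lower by the rule at 20.3 FPKM in the MyoD-Cre library against 42.8 FPKM in the flox/flox library. Srl, the luminal glycoprotein sarcalumenin that supports SERCA, was at 108 FPKM against 182 FPKM, and Trdn, the triadin that anchors calsequestrin, was at 124 FPKM against 176 FPKM. Mtmr14, a lipid phosphatase, had the highest difference of the list, at 6.05 FPKM against 4.04 FPKM. Sypl2 fell short of the rule at -0.94, a lower difference than that of Atp2a1, which the scalings brought past the rule. The counts past the rule in this and the other lists use the values as deposited and were not recounted under the scalings.

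Calcium-binding proteins of the general endoplasmic reticulum lumen, listed together with inositol trisphosphate receptors of its membrane, had a median difference above 0. Of 13 listed genes 12 had differences above 0 and 1 below, where 27% of all measured genes were below 0. None was past the rule. The median was 0.50, against 0.18 for all measured genes and -0.53 for the SERCA, inhibitor and buffer genes. Hsp90b1, a luminal chaperone, was at 348 FPKM in the MyoD-Cre library against 207 FPKM in the flox/flox library, a ratio of 1.68 (1.65 to 1.71). Calr, calreticulin, the calcium buffer of non-muscle reticulum, was at 351 FPKM against 212 FPKM. Its level was thus above that of Casq1 (344 FPKM) in the MyoD-Cre library and below it (652 FPKM) in the flox/flox library. Itpr1, an inositol trisphosphate receptor, had the lowest difference, at 4.46 FPKM against 4.94 FPKM. The summed fibroblast, bone, fat and keratinocyte markers were higher in the same library, and their part was not tested.

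**Figure D5:**
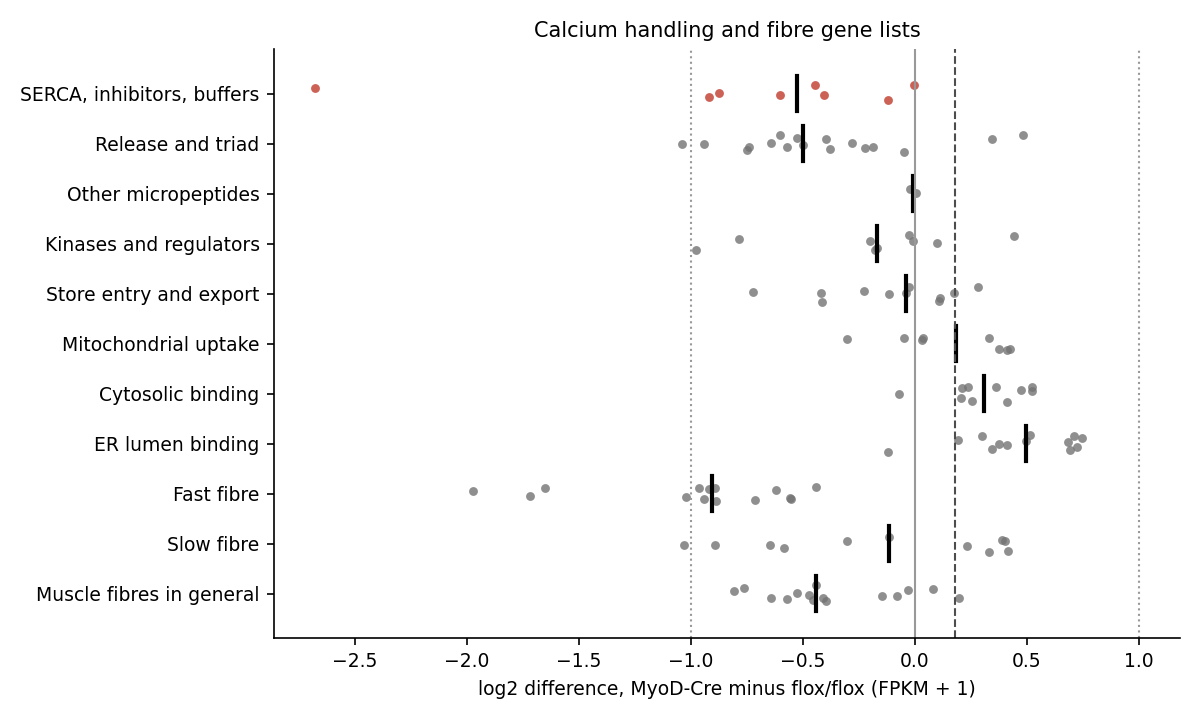
Log2 difference, MyoD-Cre minus flox/flox on the FPKM + 1 scale, of each measured gene (points) in the SERCA, inhibitor and buffer set (red) and in other calcium handling and fibre lists (grey), with list medians as black bars; the dashed line marks the median measured gene at 0.18 and dotted lines the 2-fold rule. The red set and the release list have medians of -0.53 and -0.50, the fast fibre list -0.90, and the endoplasmic reticulum lumen list 0.50.

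In the remaining lists no gene passed the rule in either direction with the values as deposited. Atp2b3 (0.474 times) and Camk2b (0.488 times) were more than 2-fold lower in plain FPKM and missed the rule through the added 1 FPKM. Store-operated entry and surface export genes had a median of -0.04, with 11 of 13 measured and 0 past the rule, from Atp2b3, a plasma membrane calcium pump, at 1.41 FPKM against 2.97 FPKM to Atp2b1, the widespread form of that pump, at 29.7 FPKM against 24.2 FPKM. Stim1, the reticulum calcium sensor, was at 20.6 FPKM against 27.7 FPKM. The 8 genes of mitochondrial calcium uptake had a median of 0.18 and 0 past the rule, from Mcu, the pore of the uniporter, at 15.0 FPKM against 18.7 FPKM to Smdt1, its essential regulator, at 41.2 FPKM against 30.4 FPKM. Kinases and regulators that act on SERCA or phospholamban had a median of -0.17, with 9 of 10 measured and 0 past the rule. Camk2b, a calcium/calmodulin-dependent kinase, had the lowest difference, at 12.1 FPKM against 24.9 FPKM, 0.488 times as much (0.457 to 0.520), and Tmx1, a thioredoxin-related membrane protein, the highest, at 18.6 FPKM against 13.4 FPKM.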

How the data were processed

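RNA from hindlimb muscle was sequenced in 1 Srsf2 flox/flox MyoD-Cre library and 1 Srsf2 flox/flox library, grouped by the genotype labels. Bowtie 0.12.2 and the build mm9 are named in the submitters' processing notes, with no role. The deposited coordinates are those of GRCm38 instead, where 8 of the 9 genes lie on the same chromosome as in GENCODE M21. The sources used here do not give how reads were counted or whether by strand. Gene-level FPKM values from the authors were used as deposited, with 1 FPKM added on the log2 scale, which understates the differences of low genes.

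Low FPKM values are whole multiples of 1 read, which gave the totals they are relative to. Whole reads (relative tolerance 2e-14) were taken where they implied a length of 0.5 to 2 times the longest GENCODE transcript (3 of the 9 genes). For the other 6, reads were estimated as FPKM times that transcript length. The smallest whole numbers for Atp2a1, Atp2a2 and Hrc implied lengths 19.8, 4.04 and 10.1 times their longest transcript, so whole reads could not be taken there, and how reads shared between genes were divided is not known. Ratios have exact Clopper-Pearson intervals, and within-library shares and ratios have intervals from the delta method on the log scale. Reads carry no molecular identifiers, so intervals cover counting error only and none of the spread between animals.

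The genes and lists were chosen with earlier results of these data known. Named are the 9 genes, Srsf2 and the genes at either end of each calcium and fibre list. The 2 mRNA genes nearest to Atp2a1 and to Pvalb are named as well. Ckm, Calm2, Ocm, Calb1, Calb2, Trdn, Srl, Sypl2, Calr, Stim1, Smim6, Des, Myh6, Nppa, Nppb and the markers at 0 were added after their values were seen. The steps were tested on simulated reads. Alternatives were the pseudocount, scaling, filter, fold and base list. Tools were Python 3.11.15 with matplotlib 3.10.9, pandas 2.3.3, scipy 1.17.1 and numpy 2.4.6.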

Additional observations from a re-analysis of the deposited data

How the results depend on the processing

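No paired analysis was possible because there was 1 library per genotype, and no library could be left out. The median difference of the 8 measured genes (-0.53) was -0.73 under median of ratios, -0.73 with TMM and -0.74 when the 50 most abundant genes were dropped, and the genes lower by the rule then numbered 3 each time (Pvalb, Atp2a1 and Casq1) in place of 1, where 1.31%, 1.31% and 1.34% of all measured genes were lower. These scalings divided the MyoD-Cre values by 1.15, 1.15 and 1.16. A 1.5-fold rule gave 4. All 45 recomputed differences of the 9 genes kept their sign. For the 8 measured genes this was fixed in advance and is no check. A pseudocount cannot turn a sign, and all 3 scalings lowered the MyoD-Cre values. Only 23 of the 45 moved by less than the counting interval. The difference of Atp2a2 (-0.003) was -0.21, -0.20 and -0.22 under the 3 scalings. The median relative to muscle fibre genes (-0.08) reversed to 0.12 when the fast and slow fibre lists were the base, whose own median is lower; the signs of Sln and Casq2 turned as well. The Atp2a1 share (86.0% in the MyoD-Cre and 91.8% in the flox/flox library) was 86.6% and 92.2% without Atp2a3. In reads it was 79.2% and 87.4%. The reads of Atp2a1 and Atp2a2 were estimated as FPKM times their longest transcript, so the longer Atp2a2 weighs more by construction. Sln over Atp2a1 alone was 0.707 and 0.526, against 0.609 and 0.483 for both inhibitors over all pumps. Over all 13175 measured genes, 353 were higher and 98 lower by the rule as deposited. A pseudocount of 0.1 gave 613 and 204 and one of 5 gave 90 and 23. Median of ratios and TMM each gave 257 and 170 (of 12931 and 12934 measured genes), and dropping the 50 most abundant genes 253 and 173 (of 12917). A filter of 5 FPKM gave 169 and 54. Folds of 1.5 and 4 gave 1205 and 383, and 96 and 3. Setting genes relative to muscle fibre genes gave 1338 and 20. The cause of these changes was not tested, beyond what the construction of each setting fixes. Depth limits Pln and Atp2a3 most.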

Other observations

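Among the 6809 mRNA genes that reached 5 FPKM in either library, those nearest to Atp2a1 in the plane of both log2(FPKM + 1) levels were Atp1b4 and Casq1. Atp1b4, a muscle membrane protein related to the sodium pump beta subunits, was at 287 FPKM in the MyoD-Cre library against 440.5 FPKM in the flox/flox library (distance 0.31), and Casq1 was at 344 against 652 FPKM (distance 0.34). Those nearest to Pvalb were Hspb6, a small heat shock protein of muscle, at 11.2 against 31.7 FPKM (distance 0.93), and Myh4, the IIb myosin heavy chain, at 16.9 against 69.3 FPKM (distance 1.03). The likeness rests on 2 libraries, so that 2 values alone define it, and Pvalb had no close neighbour.

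Of 7 embryonic and perinatal muscle genes, 1 was higher and 1 was lower by the 2-fold rule. Myl4, the embryonic and atrial myosin light chain, stood at 556 FPKM in the MyoD-Cre library against 275 FPKM in the flox/flox library, and Myh8, a myosin heavy chain of perinatal muscle, at 6684 against 15047 FPKM. The median difference of this list was -0.03. Sln and Casq2, which are also expressed in developing muscle, had differences of -0.45 and -0.60, and a link to this list was not tested.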
